A study of Mus musculus with 15 samples.

Results

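Shroom2, Capza1, Eml2 and Kif15 are 4 genes of the actin and microtubule cytoskeleton that carried somatic mutation calls in haematopoietic stem cells (HSCs) of old mice. They were taken from the deposited list of all calls by their gene annotation, and they held 5 of its 31 calls with values and 8 of its 44 entries, an entry being a call in a single library. The genes were selected on having a call there, that is on variant reads in HSC DNA over those in tail DNA, so the excess of HSC over tail reads, and the placing of a call in a single fraction or in both, are descriptions and were not tested.

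Whole-exome sequencing was applied to DNA from pellets of about 10000 HSCs of bone marrow, with tail DNA of each animal as the germline baseline. All animals were labelled old, of genotype Gfp-lc3/Gfp-Lc3 and taken at steady state. Their cells carried green fluorescent protein fused to LC3, a protein of the autophagosome whose signal falls as autophagy proceeds. HSCs of low signal were labelled AThi (GFPlo) and HSCs of high signal ATlo (GFPhi). The 15 libraries were an AThi, an ATlo and a tail library from each of 5 mice, while the stated design has 6 pairs. The labels do not state age in months, sex or the promoter of the fusion. The lists carry no expression data, so the identity of the sorted cells could not be checked against marker genes.

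Actin filaments grow and shrink at their ends, where capping proteins stop exchange of subunits, and together with myosin they give a cell its shape and tension. Microtubules are hollow tubes of tubulin along which kinesin motors walk and from which the mitotic spindle is built. In blood stem cells both systems take part in homing, in polarity and in division. Shroom2 encodes an actin-binding protein of the Shroom family, whose members shape epithelial cells by promoting contraction by myosin. Capza1 encodes an alpha subunit of the capping protein of the fast-growing filament end. Eml2 encodes a microtubule-associated protein of the EMAP family, and Kif15 encodes a spindle kinesin of the kinesin-12 family.

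The values below are deposited alternate allele fractions, with the read depth at the site. They were taken as estimates of the share of reads carrying the variant. None of the 8 entries gave a whole number of variant reads, to within the third decimal of the fraction. A heterozygous autosomal variant carried by every cell has an expected fraction of 0.5, and a variant on every copy of its site has an expected fraction of 1. The number of variant reads was estimated by multiplying depth by fraction and rounding, and each 95% Wilson interval was computed from these reads and covers counting error only. Depth at the 8 entries ran from 28 to 83 reads in HSC DNA and from 43 to 60 in tail DNA. Over all 44 entries the ranges were 13 to 371 and 10 to 280.

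The calls differed in kind. Shroom2 carried a nonsynonymous substitution in an exon in mice 1 and 4, while the calls in Eml2 (mouse 2), Capza1 (mouse 1) and Kif15 (mouse 4) lay in introns. Shroom2 and Eml2 were called in both fractions, Capza1 only in AThi cells and Kif15 only in ATlo cells. The 4 genes thus gave 4 of the 23 AThi entries and 4 of the 21 ATlo entries. In mice 3 and 5 there was no entry in any of them, where the whole list had 0 AThi and 3 ATlo entries in mouse 3 and 2 of each in mouse 5, against 3 to 8 in the libraries of mice 1, 2 and 4. The lists give no reads for sites without a call, so absence there was not measured.

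**Figure D1:**
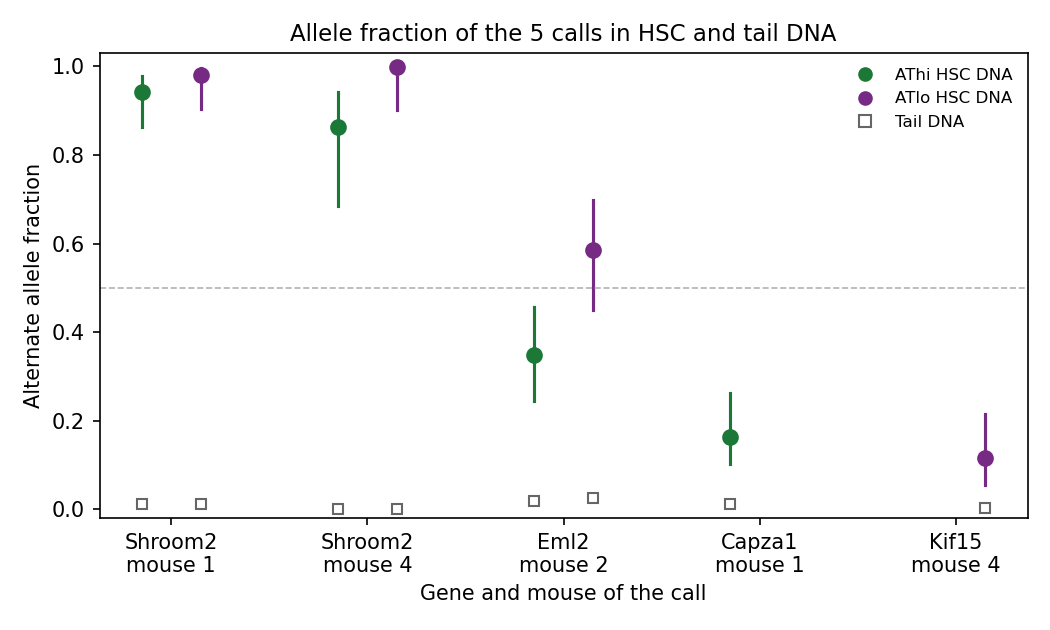
Alternate allele fraction (y axis) of the 5 calls by gene and mouse (x axis). Filled circles are HSC libraries with 95% Wilson intervals from estimated reads, open squares are the tail values of the same entries, and the dashed line marks 0.5. Shroom2 stands at 0.863 to 0.998, Eml2 at 0.348 and 0.586, and Capza1 and Kif15 at 0.163 and 0.115, with tail values at or below 0.026.

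The Shroom2 call was a G-to-A change at position 152613618 of chromosome X, in the coordinates of the call list, for which no source used here names a build. On the coding strand it is C896T in exon 5 of the transcript listed first, which replaces alanine by valine as A299V. The call was annotated on 8 transcripts, all 8 of them under Shroom2 in RefSeq for GRCm38.p6. It reads as A284V in 5 of them, in exon 5 or 6, as A1319V in exon 9 of another and as A1325V in exon 9 of the last. The residue number therefore depends on the transcript, while the exchange of alanine for valine is the same in all 8. Both residues are small and uncharged.

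In mouse 1 the Shroom2 fraction was 0.943 at 71 reads in AThi cells (95% interval 0.864 to 0.978) and 0.98 at 55 reads in ATlo cells (0.904 to 0.997). In mouse 4 it was 0.863 at 28 reads in AThi cells (0.685 to 0.943) and 0.998 at 35 reads in ATlo cells (0.901 to 1). Both ATlo libraries stood above both AThi libraries, and the estimated reads without the variant were 4 and 4 in AThi against 1 and 0 in ATlo. Over the 4 libraries an estimated 180 of 189 reads carried the variant. These were the highest fractions of their libraries in mouse 4 and in ATlo cells of mouse 1, and the second highest of 8 in AThi cells of mouse 1. The call above it there was in Rhox2e, whose fraction was 0.972, against 0.976 in the ATlo library of that mouse. Rhox2e and Shroom2 in mice 1 and 4 were the 3 shared calls on chromosome X. None of the 10 shared autosomal calls exceeded 0.586 in either fraction. The 1 single-fraction call on that chromosome, Tspyl2 in ATlo cells of mouse 3, stood at 0.093 of 76 reads. A value near 1 was thus also seen in Rhox2e of mouse 1, but not in every call on the chromosome. Its relation to the chromosome was not tested.

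Taken over the mice, Shroom2 had a fraction of 0.903 ± 0.0566 (SD, n = 2) in AThi cells and 0.989 ± 0.0127 (SD, n = 2) in ATlo cells. The mean difference of AThi minus ATlo was -0.086, with an SD of the paired differences of 0.0693, and the difference was negative in 2 of 2 mice. An exact two-sided permutation test over sign flips gave p = 0.5, the smallest that 2 pairs allow, so this design could not show a difference between the fractions. The difference was -0.037 in mouse 1 and -0.135 in mouse 4, where the AThi library had 28 reads at the site. Whether the mice differed in it was not tested.

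In tail DNA the Shroom2 fraction was 0.012 at 54 reads in mouse 1, or an estimated 1 read. It was 0.002 in mouse 4, at 43 reads in the entry of AThi cells and 44 in that of ATlo cells, or an estimated 0 reads, which allows a share of up to 6.98% and 6.82%. The germline baseline thus had at most an estimated 1 read of a substitution that made up most estimated reads of the same animal's HSC libraries. The identical base change was called in mice 1 and 4. The list holds 31 calls in 30 genes, and Shroom2 was the only gene called in more than 1 mouse. How the change came to be called in both animals was not tested.

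The Eml2 call was a G-to-A change in an intron, at position 19184984 of chromosome 7. It stood at 0.348 of 73 reads in AThi cells of mouse 2 (95% interval 0.244 to 0.457) and at 0.586 of 57 reads in ATlo cells (0.450 to 0.698). The AThi interval lay below 0.5, the ATlo interval held it, and the intervals overlapped only between 0.450 and 0.457. Of the 10 autosomal calls made in both fractions, the AThi interval held 0.5 in 8, and Eml2 was among the exceptions. With the estimated reads of both libraries pooled, 58 of 130 or 0.446, the interval of 0.363 to 0.532 held 0.5.

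Ranked by fraction within its library, Eml2 was number 4 of 7 calls in AThi cells and the highest of 3 in ATlo cells. Its quality score, on a scale the sources used here do not state, was 63.5 in AThi and 99.3 in ATlo cells. The estimated variant reads were 25 in AThi and 33 in ATlo cells, with the AThi library the deeper at this site. Tail DNA of mouse 2 had 58 reads there, with a fraction of 0.018 beside the AThi call and 0.026 beside the ATlo call. These correspond to an estimated 1 and 2 reads of the same tail library, so the same tail library was given a different estimate beside each HSC library.

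The calls made in both fractions were compared between them by Fisher's exact test on estimated reads, adjusted over all 13 such calls of the study by the Benjamini-Hochberg method. Each test sets a single AThi library against a single ATlo library of the same mouse, and so compares those libraries and not the conditions. None of the 13, or 0%, had an adjusted p under 0.05, and 3, or 23.1%, had an unadjusted p under 0.05, namely Eml2, Shroom2 in mouse 4 and, in the other direction, Rapgef3 in mouse 1, which was higher in AThi cells by 0.149 (95% Newcombe interval 0.0163 to 0.278). With a chi-squared test the unadjusted share was 15.4%, again with an adjusted count of 0.

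Eml2 had the largest absolute difference of the 13, with AThi minus ATlo of -0.238 (95% Newcombe interval -0.391 to -0.0640, Fisher's exact p = 0.00814, adjusted p = 0.106). The adjusted p ran from 0.0244 to 0.155 over the alternatives and fell under 0.05 only where calls were adjusted within each mouse. Shroom2 in mouse 4 ranked 4 of 13 by difference, with -0.135 (interval -0.315 to -0.0119, Fisher's exact p = 0.0344, adjusted p = 0.154). Its unadjusted p was 0.162 with alternate reads rounded down and 0.0825 with reads rounded up in the same exact test, and 0.0733 by the chi-squared test, so it stayed under 0.05 in none of these. Shroom2 in mouse 1 ranked 7 of 13, with -0.037 (interval -0.119 to 0.0469, Fisher's exact p = 0.386, adjusted p = 0.974).

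All 3 shared calls of the cytoskeletal genes had the higher fraction in ATlo cells, against 8 of all 13, or 61.5%. Their median absolute difference was 0.135, against 0.037 over the 13. These counts include the 3 calls themselves and are given as a description.

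**Figure D2:**
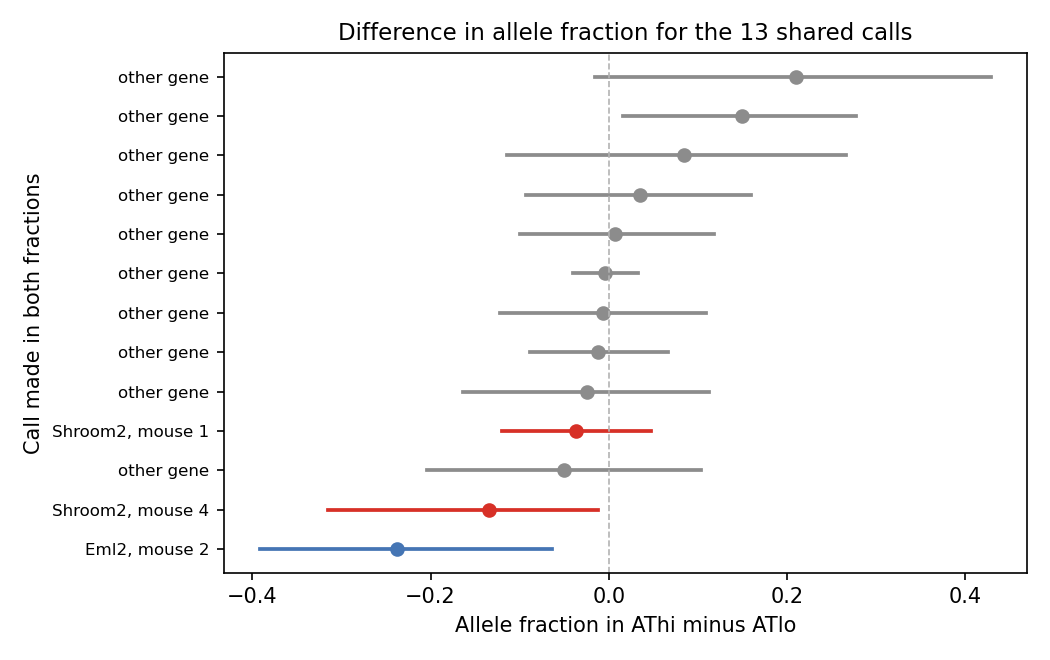
Allele fraction in AThi minus ATlo cells (x axis) for each of the 13 calls made in both fractions (y axis, ordered by the difference), with 95% Newcombe intervals. Shroom2 in red and Eml2 in blue have differences of -0.037, -0.135 and -0.238, and the other genes are grey. The intervals of Eml2 and of Shroom2 in mouse 4 lie below 0 and that of Rapgef3 (0.149, grey) above it, while no call passed the test after adjustment.

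The Capza1 call was a C-to-T change in an intron, at position 104839759 of chromosome 3. It was made in AThi cells of mouse 1, at a fraction of 0.163 of 83 reads (95% interval 0.103 to 0.263), an estimated 14 reads. Tail DNA had 0.012 at 44 reads, an estimated 1 read. Among the 8 calls of this library its fraction was the second lowest. The ATlo library of the same mouse had 6 calls and none in Capza1; its reads at the site were not analysed here.

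The Kif15 call was a G-to-T change in an intron, at position 122979435 of chromosome 9. It was made in ATlo cells of mouse 4, at a fraction of 0.115 of 62 reads (95% interval 0.0558 to 0.215), an estimated 7 reads. Its fraction was the lowest of the 7 calls of that library, at a depth above the library's median of 35 reads at called sites. Tail DNA had 0.003 at 60 reads, an estimated 0 reads, which allows a share of up to 5%. The AThi library of mouse 4 had a median depth of 29.5 reads at its 6 called sites, none of them in Kif15.

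Set side by side, the shared and the single-fraction calls of these genes did not overlap in fraction, estimated alternate reads or quality. The 6 shared entries had fractions of 0.348 to 0.998, 24 to 67 alternate reads and quality scores of 63.5 to 224.5. The 2 single-fraction entries had 0.115 and 0.163, 7 and 14 reads and scores of 11.5 and 21.8. Depth did not separate them, with 28 to 73 reads at the shared entries and 62 and 83 at the others.

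Over the whole list the ranges overlapped, from 0.167 to 0.998 in fraction for shared against 0.079 to 0.42 for single-fraction entries, from 10 to 198 against 5 to 15 alternate reads, and from 24.7 to 649.3 against 6.5 to 31.8 in score. The grouping is not independent of these values, since few variant reads at a site make a call in both libraries harder. Depth ran from 28 to 371 reads at shared and from 13 to 134 at single-fraction entries. The medians of fraction, alternate reads and score lay in the same order as in these genes, while those of depth did not. Median depth was 88 reads at shared and 30 at single-fraction entries of the list, against 56 and 72.5 in these genes. Median fractions were 0.49 over 26 shared and 0.249 over 18 single-fraction entries, and median scores were 120.7 and 13.9. Within the 18 single-fraction calls Capza1 ranked 13 by fraction but 3 by depth and 2 by quality score, counted from the highest. Kif15 ranked 15 by fraction, 6 by depth and 11 by score. Both were thus low-fraction calls at sites of higher depth than most, where the median depth was 30 reads.

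Quality per estimated alternate read also differed. It was 3.21 to 3.55 in the 4 Shroom2 entries, 2.54 and 3.01 in AThi and ATlo entries of Eml2, 1.56 in Capza1 and 1.64 in Kif15. Medians were 2.91 over all shared and 1.6 over all single-fraction entries. Shroom2 in AThi cells of mouse 4 had the highest value of all 44 entries, at a depth of 28 reads.

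**Figure D3:**
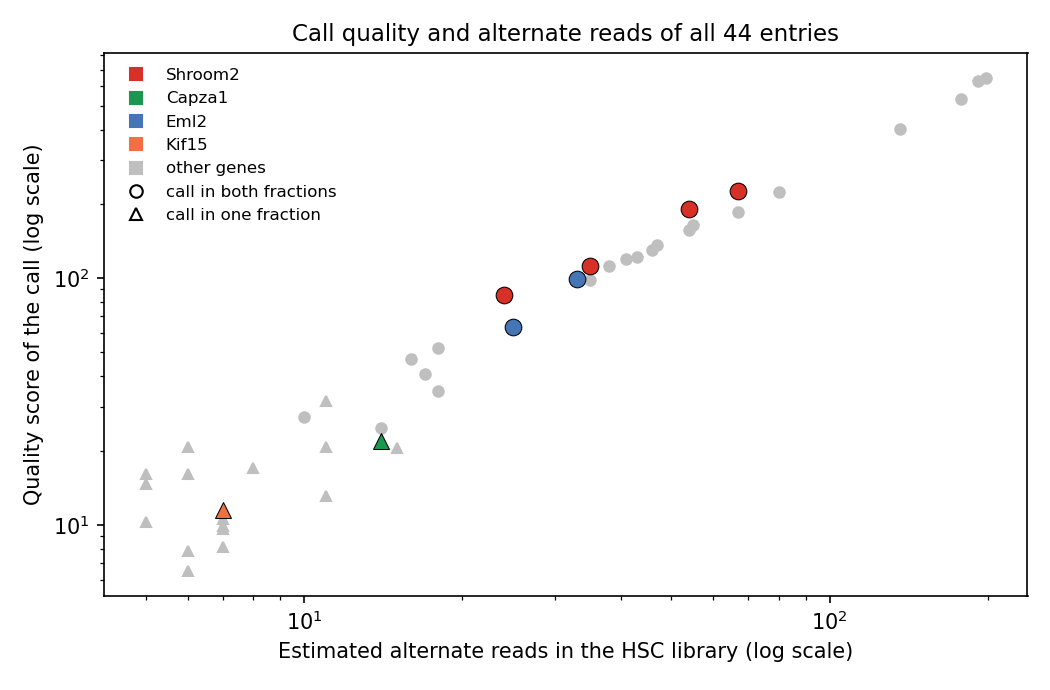
Quality score of the call (y axis, log scale, unit not stated by the authors) against estimated alternate reads in the HSC library (x axis, log scale) for all 44 entries. Circles are calls made in both fractions and triangles calls made in a single fraction, with grey for other genes. Shroom2 and Eml2 lie at 24 to 67 reads with scores of 63.5 or more, while Capza1 and Kif15 lie at 14 and 7 reads with scores of 21.8 and 11.5.

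By base change, read on either strand, Shroom2, Eml2 and Capza1 were C-to-T calls. Kif15 was a C-to-A call. Of all 13 shared calls 9 were C-to-T, and of the 18 single-fraction calls 3 were. The 5 calls held no insertion or deletion, which made up 4 of the 18 single-fraction calls. None of the 8 entries carried an identifier in the deposited column of known polymorphisms (snp142), against 1 of 44 entries in all.

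Lists of further cytoskeletal genes were then searched. Of 63 genes of actin filaments and their regulators, 2 had a call, Shroom2 and Capza1, and other Shroom genes, capping subunits, cofilins, profilins and formins on the list had none. Of 58 genes of microtubules, motors and the spindle, 3 had a call, Eml2, Kif15 and Togaram1, which encodes a tubulin-binding protein of cilia. The Togaram1 call was an inserted base in an intron in ATlo cells of mouse 4, at 0.338 of 21 reads (95% interval 0.172 to 0.546), with 10 reads in tail. Which listed genes were covered by the exome capture was not analysed here, and the lists were written with these calls known. The whole table names 30 genes, so the counts of 2 and 3 say nothing of whether cytoskeletal genes were called more often than others.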

How the data were processed

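Exomes of HSC pellets and tails were captured and sequenced at 2 facilities, with coverage of 150 and 30 planned, per the labels' protocols, which do not tie mice to facilities. The submitters' processing notes name Bowtie2, and the deposited calls carry Mutect2 in their name. Its version, filters and genome build: not given in the sources used here. Depths are counts of reads, per the file headers. Allele fractions are as deposited, per the file headers. They were taken as estimates, since only 7 of 44 entries gave a whole number of variant reads, within the third decimal of the fraction. Quality, as deposited, is a score of unstated scale. Another 2 lines of the list held no values here and were not analysed.

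Libraries were grouped by autophagy status and mouse in the labels, and paired by animal, per the stated design. Alternate reads were depth times fraction, rounded. Shared calls were compared by two-sided Fisher's exact test with Benjamini-Hochberg adjustment over 13 calls at a threshold of 0.05. The test was also run on simulated data, with unchanged calls at a fraction of 0.5. Changed calls were set further apart there than any difference seen here. The simulation therefore does not show whether differences of the observed size, or at the fractions of Shroom2, could be found. Named genes were the 4 members and any other listed gene with a call. Further genes were named only where a rank, a small count or the nearest call needed the name. On GRCm38.p6 all 4 sites lay inside the gene they are annotated to. Genes, lists and tests were chosen with earlier results of these data known. Alternatives were a chi-squared test, other rounding, other adjustment, depth of at least 50, fraction of at least 0.1, autosomes only, no tail read, depth weights, no pairing and each mouse left out. Tests used SciPy 1.17.1 and NumPy 2.4.6 in Python 3.11.15, and plots Matplotlib 3.10.9.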

Additional observations from a re-analysis of the deposited data

How the results depend on the processing

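The count of shared calls passing the adjusted threshold was 0 in 11 of 12 alternatives and 1 with adjustment within each mouse, where the call was Eml2 (-0.238, Fisher's exact adjusted p = 0.0244) because it was adjusted over fewer calls; with each mouse left out it was 0. The difference of each single call is fixed by the deposited fractions, so the alternatives change only its p or leave the call out. For Shroom2 over both mice, the fit with no replicate block keeps the difference of -0.086 and gave an exact permutation p = 0.333, the smallest it allows, so neither fit bears on stability. Weighted by depth the difference was -0.0697, and leaving out a mouse gave -0.135 to -0.037. With no estimated alternate read in tail, AThi entries in the 4 genes were 1 and ATlo entries 2, against 4 and 4. At least 1 tail alternate read was estimated in 5 of these 8 entries, and in 34 of all 44. With each mouse left out, entries in the 4 genes ran from 2 to 4 in AThi (2 without mouse 1). In ATlo they ran from 2 to 4 (2 without mouse 4). Depths of 28 to 83 reads and tail depths of 43 to 60 limit what could be seen, and the planned minimum fraction of 0.1 removed no entry.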

Other observations

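Of the 13 shared calls, 9 had the same tail depth and tail fraction in both entries of the mouse; Eml2 and Shroom2 in mouse 4 were among the others. The Eml2 call of mouse 2 lay 583 kb from the Bcam call of mouse 1 on chromosome 7, and the Shroom2 call of mice 1 and 4 lay 273 kb from the Tspyl2 call of mouse 3 on chromosome X. These genes were named after their values were seen.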
